A study of Mus musculus with 24 samples.

Results

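The 9 genes of the vitamin D system examined here were measured in the retroperitoneal white adipose tissue of mouse offspring. They were the receptor Vdr, its partners Rxra, Rxrb and Rxrg, the hydroxylases Cyp2r1, Cyp27a1, Cyp27b1 and Cyp24a1, and Pdia3, a membrane-associated binding protein proposed for the hormone. The genes were chosen by symbol, for their place in the vitamin D system, and 9 of 9 were among the 56895 uniquely named entries of the deposited tables. Of these 9 genes, 7 had enough reads to be tested in every comparison, and Cyp24a1 and Cyp27b1 were too low to judge in any of them. The 24 libraries were poly(A) RNA-seq libraries of C57BL/6J mice (C57BL/6JRJ in the methods of the study), 3 per group in 8 groups. Mothers (15 per diet) had received the AIN-93G diet with vitamin D3 at 1.0 IU/g (CTRL) or 0.0 IU/g (VDD) for at least 8 weeks before mating and throughout gestation, and all of them the control diet from birth to weaning. From 6 weeks of age, male and female offspring were given for 8 weeks either a low fat diet (LF, AIN-93M) or a high fat diet (HF, 45% of the energy from fat), so that the groups were CTRL LF, CTRL HF, VDD LF and VDD HF in each sex. None of the offspring diets was the vitamin D free one, so the VDD offspring differed from CTRL by the diet of their mother before birth. The sources used here do not tie littermates to libraries, and p-values measure the spread between these mice.

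Vitamin D is made in the skin from a sterol or taken from the diet, and is hydroxylated first on its side chain, mainly by CYP2R1 in the liver with a contribution of the mitochondrial CYP27A1, and then on its ring by CYP27B1, chiefly in the kidney. The active hormone binds VDR, which pairs with a retinoid X receptor (RXRα, RXRβ or RXRγ) on DNA, and CYP24A1, itself a target of VDR, breaks the hormone down. White adipose tissue stores vitamin D, and VDR has been described in its preadipocytes and adipocytes.

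Levels are given as normalized reads, that is, the reads of a gene divided by a size factor common to the 24 libraries, and they are compared between genes only after division by the exon length in kb. Per kb, Pdia3 was the most abundant of the 9 genes (median 1359 normalized reads per kb over the 24 libraries, range 1027 to 2069). Rxra (median 444, range 317 to 605) and Cyp27a1 (median 433, range 274 to 925) came next, and their ranges overlapped. Rxrb (median 192, range 136 to 285) stood above Rxrg (median 99.2, range 61.0 to 199), again with overlapping ranges, so that the order of the 3 RXR genes was Rxra, Rxrb and Rxrg. Cyp2r1 (median 10.3, range 5.17 to 21.99) and Vdr (median 5.54, range 0.682 to 101) were far lower and did not separate from each other. Cyp27b1 (median 0.945, range 0 to 3.10) and Cyp24a1 (median 0) were at the bottom. The receptor and the first hydroxylase of the pathway were thus read at a small fraction of the level of the RXR partners, and the activating and degrading enzymes were close to the limit of the sequencing. Since this was whole tissue, fewer cells of a type and less RNA per cell cannot be told apart in any of the differences below.

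**Figure D1:**
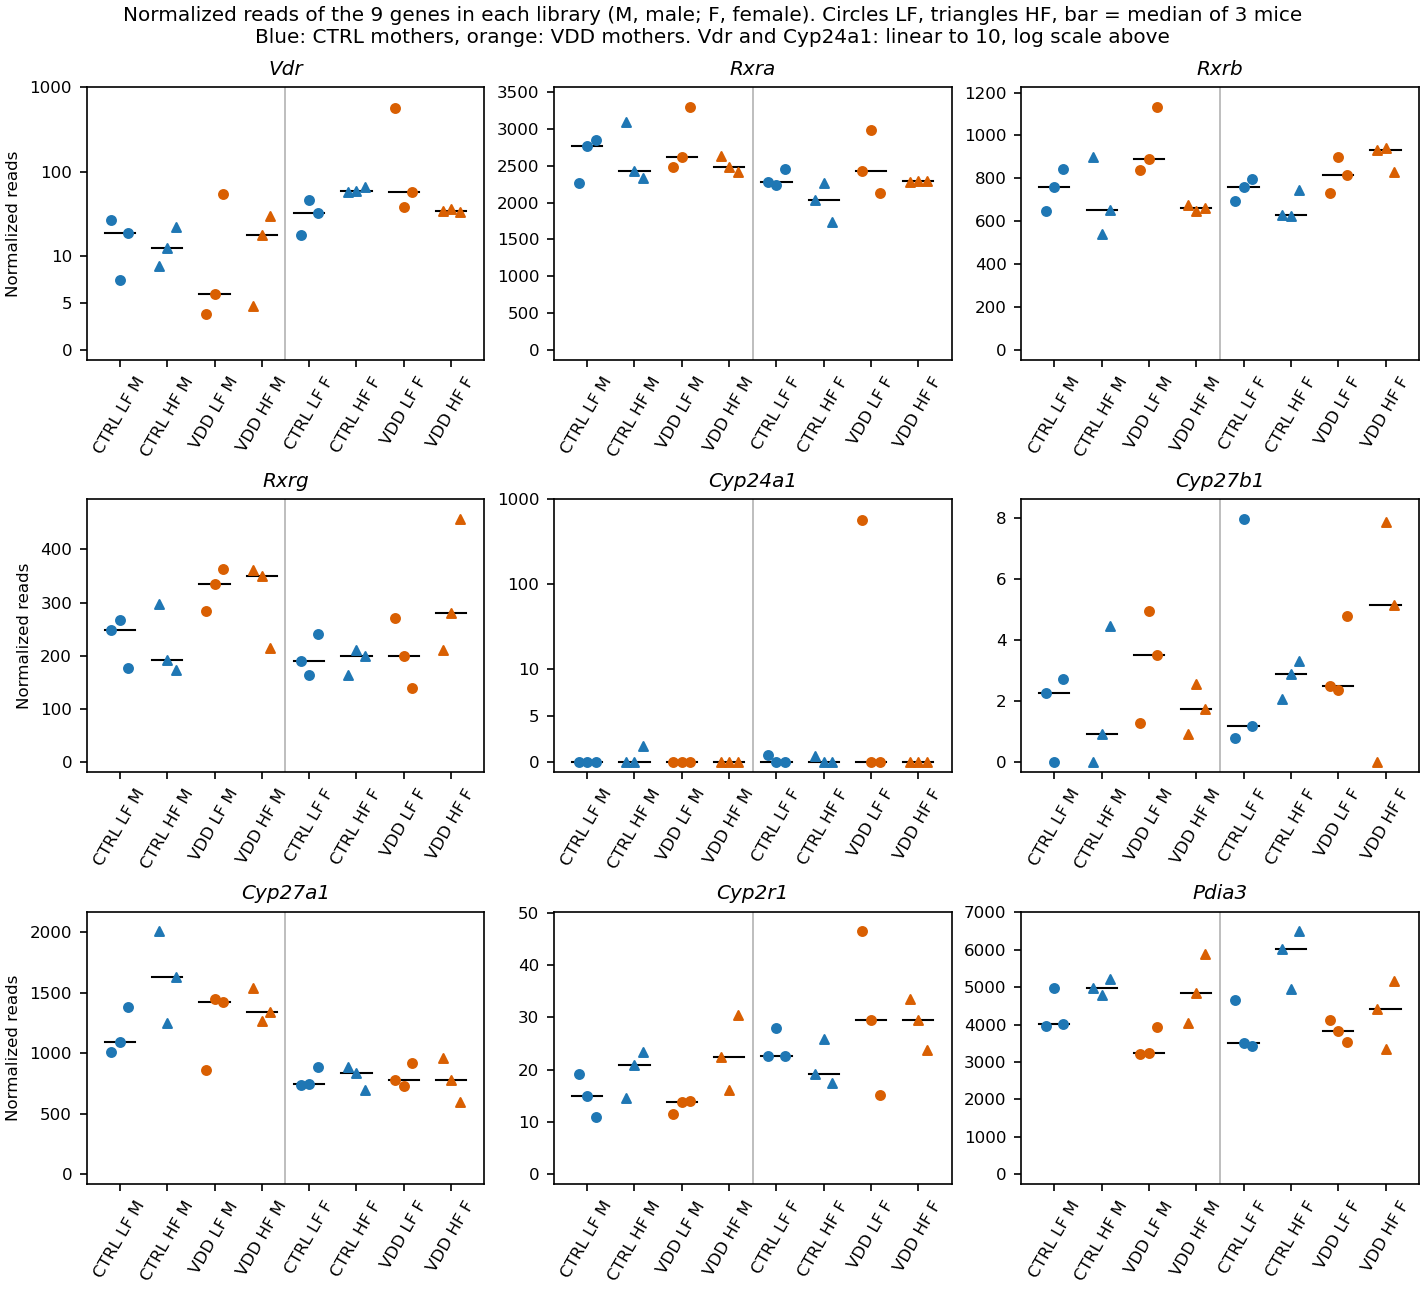
Normalized reads (y axis, linear except for Vdr and Cyp24a1, whose axes are linear to 10 and logarithmic above) of each of the 9 genes in the 24 libraries, by group (x axis; M, male; F, female; circles LF, triangles HF, blue CTRL, orange VDD; bars are medians of 3 mice). Cyp27a1 is lower in the 4 female groups (medians 748 to 840) than in the 4 male groups (medians 1090 to 1632), and 1 VDD LF female stands apart for Vdr (571.9) and Cyp24a1 (575.7).

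The libraries held 13346779 to 18484346 reads assigned to genes. Adipocyte markers (Adipoq, Plin1, Cidec, Fabp4, Lipe and Lep) summed to between 289739 and 832139 normalized reads in the 24 libraries. One library, VDD LF female 2303 (libraries are named by group and by the mouse number in the deposited columns), differed from the other 23 in its kidney genes. The 8 kidney markers (Umod, Slc12a1, Slc12a3, Slc34a1, Slc22a6, Slc5a2, Aqp2 and Kap) summed to 7898 normalized reads there and to between 0 and 21.1 in the other 23 libraries, and 8 of 8 were highest in it. Umod had 1943 normalized reads in that library and at most 4.48 elsewhere, and Slc34a1, the phosphate carrier of the proximal tubule, 2916 and at most 2.98. Skeletal muscle markers also varied widely, with sums of 148 to 922340 normalized reads for 7 genes and the highest value in VDD LF male 2310. Adrenal markers (Cyp11a1, Cyp11b1, Cyp11b2, Cyp21a1, Star, Mc2r and Nr5a1) summed to 389 to 754 normalized reads in males and 442 to 15650 in females, with the highest sums in CTRL HF female 2292 (15650), VDD HF female 2121 (11914) and CTRL HF female 2290 (5368). Differences of the members that VDD LF female 2303 enters, where they were tested over the 24 libraries, and counts over the other genes of the pathway are given with and without it.

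That library decided what could be said of the degrading enzyme. Cyp24a1 (chr2:170482708-170497145, minus strand, GENCODE M21 on GRCm38) had 462 reads in the 24 libraries together, of which 458 were in VDD LF female 2303 (575.7 normalized reads). In the other 23 libraries it had 4 reads in all, at most 1.79 normalized reads, and 20 of 24 libraries held none. A count of 0 allows up to 3 reads, or 2.06 to 3.87 normalized reads depending on the library, by counting error alone. Apart from the library with the kidney markers, Cyp24a1 was therefore not detectable at this depth in any of the 8 groups. The gene overlaps Pfdn4 on the opposite strand. The sources used here do not state whether counting used the strand, but Pfdn4 had at least 95 normalized reads in every library while Cyp24a1 was at or near 0 in 23 of them.

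Cyp27b1 (chr10:127048250-127053006, plus strand), the enzyme that makes the active hormone, had 69 reads in the 24 libraries together. Its highest library held 8 reads, 3 libraries held none, and the normalized values ran from 0 to 7.98. It did not follow the kidney markers, with 2.51 normalized reads in VDD LF female 2303 against a median of 2.35 in the other 23 libraries. The medians of the 4 male groups lay between 0.909 and 3.52 normalized reads and those of the 4 female groups between 1.20 and 5.16. These differences of 1 to a few reads were not judged.

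**Figure D2:**
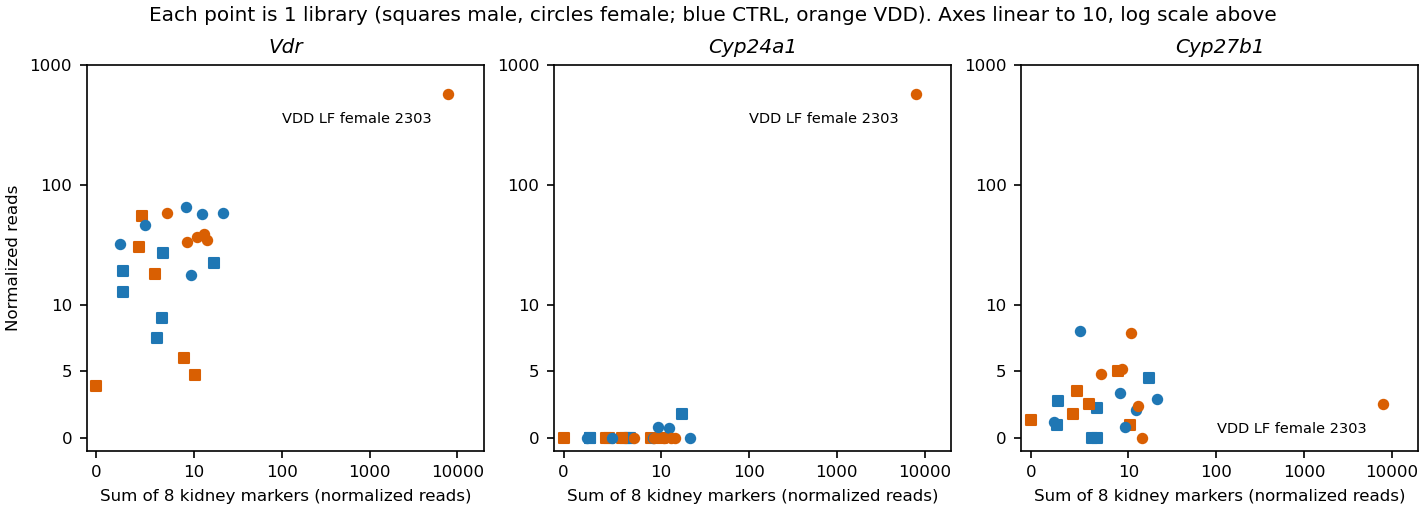
Normalized reads of Vdr, Cyp24a1 and Cyp27b1 (y axes) against the sum of the 8 kidney markers (x axis), both linear to 10 and logarithmic above, with 1 point per library (squares male, circles female, blue CTRL, orange VDD). VDD LF female 2303 lies alone at 7898 normalized reads of kidney markers with high Vdr (571.9) and Cyp24a1 (575.7), while its Cyp27b1 (2.51) is within the range of the other 23 libraries (0 to 7.98).

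Vdr (chr15:97854425-97910630, minus strand) was read in all 24 libraries, with 1191 reads in total and 455 of them in VDD LF female 2303. It reached 10 normalized reads, the level used to filter genes for testing, in 19 of 24 libraries, and the others were male. This low level limits its precision in males. In males the values were 27.1, 7.51 and 19.2 normalized reads in CTRL LF, 8.99, 12.7 and 22.4 in CTRL HF, 3.86, 5.96 and 55.2 in VDD LF, and 4.69, 17.9 and 30.4 in VDD HF. In females they were 17.7, 45.9 and 32.3 in CTRL LF, 57.6, 58.6 and 65.7 in CTRL HF, 571.9, 38.8 and 58.5 in VDD LF, and 34.8, 36.4 and 33.0 in VDD HF. The male groups overlapped each other entirely and were widest in VDD LF, whose highest value belonged to VDD LF male 2310, the male library with the highest sums of muscle markers (922340 normalized reads) and of mesothelium markers (8541). All 12 females lay above the male median of 15.3, 5 of 12 lay above the highest male, and the sexes did not overlap under the HF diet in either maternal group. The share of all genes that separate the sexes within a diet combination was not counted, here or for the genes below.

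In the fit of all 24 libraries, which takes the mean difference between sexes over the 4 combinations of diets, 3 of the 7 genes tested were called at an adjusted p under 0.05, against 19.8% of the 18414 genes tested. Vdr was higher in females (log2 difference 1.83, SE 0.45, limma, Benjamini-Hochberg adjusted p = 0.00679). Without VDD LF female 2303 the difference was 1.54 (SE 0.38, limma adjusted p = 0.00801). The markers of mesothelium, the cell layer that covers the abdominal organs and fat pads (Msln, Upk3b, Krt19 and Wt1), moved with it. Their sum was 2069 to 11583 normalized reads in females (median 3574) and 147 to 8541 in males (median 1839), and with their mean log2 level in the model the Vdr difference was 1.21 (SE 0.47, limma adjusted p = 0.0735) and was no longer called. With the mean log2 level of the adrenal markers in the model the difference was 1.84 (SE 0.67, limma adjusted p = 0.183) and not called either, and 398 genes in all were called between the sexes in that model against 3649 without the score. The part of these cells in the sex difference of Vdr was not tested beyond those models.

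The Vdr promoter is printed because Vdr had the largest log2 difference between the sexes of the 7 genes. The 250 bases before the RefSeq start (GRCm38.p6, the build called mm10 in the submitters' notes, chr15:97908297-97908546, minus strand) are given 5′ to 3′, with the GC boxes (GGGCGG) in capitals.
Vdr: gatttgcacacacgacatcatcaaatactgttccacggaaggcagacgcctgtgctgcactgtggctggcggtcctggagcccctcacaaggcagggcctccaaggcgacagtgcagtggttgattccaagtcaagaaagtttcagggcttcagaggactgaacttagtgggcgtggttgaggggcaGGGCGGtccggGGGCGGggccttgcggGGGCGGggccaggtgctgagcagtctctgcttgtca
The GENCODE M21 gene of Vdr begins farther upstream, and the window lies within it. The 3 GC boxes begin 63, 52 and 36 bases upstream of the start and do not overlap. A GC box on either strand occurs in 32.7% of the 32851 RefSeq promoter windows of this length. The window held no direct repeat of the receptor half-site AGGTCA with 3 spacer bases, which is present in 0.00609% of windows. It also held no oestrogen element (GGTCA, 3 spacer bases, TGACC) and no androgen element (AGAACA, 3 spacer bases, TGTTCT) on either strand. These are present in 0.0639% and 0.00913% of windows. Promoter entries were matched for 8 of the 9 genes, all except Cyp24a1, and none of the 8 held any of these 3 elements. With elements this rare, their absence was nearly certain in advance and says nothing about hormone control of these genes.

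Cyp27a1 (chr1:74713574-74737892, plus strand), a mitochondrial sterol hydroxylase of bile acid synthesis that also acts on vitamin D, showed the clearest difference between the sexes. In males its values were 1007, 1090 and 1385 normalized reads in CTRL LF, 2010, 1249 and 1632 in CTRL HF, 862.5, 1448 and 1420 in VDD LF, and 1538, 1267 and 1340 in VDD HF. In females they were 741.6, 748 and 890 in CTRL LF, 887, 840.0 and 696 in CTRL HF, 782, 731 and 922 in VDD LF, and 962, 782 and 596 in VDD HF. All 12 females were below the male median of 1363, 8 of 12 were below the lowest male, and within 3 of the 4 diet combinations the sexes did not overlap. The exception was VDD LF, where the lowest male (862.5) fell below the highest female (922). The share of all genes with such a separation was not counted.

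Cyp27a1 was 0.74 lower in females on the log2 scale (log2 difference -0.74, SE 0.11, limma adjusted p = 8.3e-05). The difference was -0.74 (limma adjusted p = 2.0e-04) without VDD LF female 2303. Macrophage markers (Adgre1, Cd68, Lyz2, Csf1r, Mrc1 and Itgax) moved in the same direction, with a summed level of 5244 to 35784 normalized reads in males (median 15365) and 4148 to 21979 in females (median 6726). With their mean log2 level in the model the difference was -0.58 (SE 0.14, limma adjusted p = 0.0134) and stayed called, as it did with the adrenal markers (-0.61, SE 0.15, limma adjusted p = 0.0456). The HF diet did not give a called change in either sex. In females the log2 fold of HF over LF was 1.6e-04 in CTRL (SE 0.13) and -0.08 in VDD (SE 0.21), and in CTRL males it was 0.47 (SE 0.21, limma adjusted p = 0.274), with overlapping groups.

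Cyp2r1 (chr7:114549682-114562972, minus strand), the microsomal hydroxylase of the first step, differed in the opposite direction. In males the values were 19.2, 15.0 and 10.9 normalized reads in CTRL LF, 14.6, 20.9 and 23.3 in CTRL HF, 11.6, 13.9 and 14.1 in VDD LF, and 22.5, 16.2 and 30.4 in VDD HF. In females they were 22.5, 27.9 and 22.7 in CTRL LF, 19.2, 25.9 and 17.5 in CTRL HF, 46.5, 29.4 and 15.2 in VDD LF, and 33.5, 29.5 and 23.8 in VDD HF. Of the females 11 of 12 were above the male median of 15.6 and 2 of 12 above the highest male, and the highest value of all was in VDD LF female 2303. The sexes did not overlap under the LF diet in either maternal group, again without a count over all genes.

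The log2 difference of Cyp2r1 between females and males was 0.54 (SE 0.17, limma adjusted p = 0.0367), and its call, close to the threshold, depended on single libraries. Without VDD LF female 2303 the difference was 0.44 (SE 0.16, limma adjusted p = 0.0658) and not called. The call was likewise lost without any 1 of CTRL LF male 2296, CTRL HF male 2127, VDD LF male 2078, VDD HF male 2298 or 2307, CTRL LF female 2125, CTRL HF female 2291, VDD LF female 2311 or VDD HF female 2081, with log2 differences of 0.48 to 0.54 and limma adjusted p of 0.0523 to 0.0707. With the adrenal markers in the model it was 0.88 (SE 0.24, limma adjusted p = 0.0693), also not called. The gene had 9 to 37 reads per library, and this depth limits its precision. With a pseudocount of 10 the difference was 0.38, the smallest of all the alternatives.

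The sequences upstream of both hydroxylases are shown as those of the other genes with a difference between the sexes. The windows are the 250 bases before the RefSeq start on GRCm38.p6, chr1:74713285-74713534 (plus strand) for Cyp27a1 and chr7:114562973-114563222 (minus strand) for Cyp2r1. Capitals mark CCAAT boxes on either strand (ATTGG when on the opposite one) and, in Cyp27a1, the half-site AGTTCA.
Cyp27a1: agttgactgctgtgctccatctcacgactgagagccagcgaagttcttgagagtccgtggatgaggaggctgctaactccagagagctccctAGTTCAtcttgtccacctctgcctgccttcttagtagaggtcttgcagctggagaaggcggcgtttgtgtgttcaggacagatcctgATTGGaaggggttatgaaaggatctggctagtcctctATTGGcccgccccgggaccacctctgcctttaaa
Cyp2r1: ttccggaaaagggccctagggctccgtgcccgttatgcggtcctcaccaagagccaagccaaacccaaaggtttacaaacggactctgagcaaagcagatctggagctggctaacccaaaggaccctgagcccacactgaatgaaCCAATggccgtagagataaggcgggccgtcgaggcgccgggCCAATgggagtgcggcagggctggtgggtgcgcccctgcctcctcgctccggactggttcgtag
Cyp27a1 held 2 CCAAT boxes on the opposite strand, which begin 71 and 34 bases upstream, and Cyp2r1 held 2 on the gene's own strand, at 105 and 64 bases. A CCAAT box on either strand is present in 33.8% of promoter windows and AGTTCA in 11.8%, so neither motif sets these genes apart by its presence.

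Among the partners of VDR, Rxra (chr2:27676440-27762957, plus strand), the main RXR of many tissues, had 2271 to 3302 normalized reads in males (median 2552) and 1731 to 2990 in females (median 2277). Of the females 11 of 12 lay below the male median, and the ranges overlapped. The log2 difference was -0.21 (SE 0.07, limma adjusted p = 0.0508), just outside the threshold. Leaving out CTRL LF male 2287, CTRL HF male 2131, VDD LF male 2078, CTRL HF female 2291 or VDD LF female 2311 brought it inside, with limma adjusted p of 0.0279 to 0.0457. With these, Rxra was called in 8 of 36 alternatives in all. The difference was of 1 sign in all of the settings tried (log2 difference -0.26 to -0.17, limma adjusted p up to 0.511). It was weakest, at -0.17 and not called, with the adrenal markers in the model. Without VDD LF female 2303 it was -0.21 (SE 0.08, limma adjusted p = 0.0744).

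Rxrb (chr17:34031812-34038399, plus strand), a widely expressed RXR, was the member with the lowest adjusted p under the HF diet in males of VDD mothers. Its values were 839, 891 and 1134 normalized reads in VDD LF males and 676, 647 and 660 in VDD HF males. All 3 HF values were below the 3 LF values, and groups without overlap in either direction made up 33.4% of the genes tested in that comparison. The log2 fold was -0.52 (SE 0.14, limma adjusted p = 0.0862), and the gene was not called. In CTRL males the values were 647, 762 and 842 in LF and 899, 539 and 653 in HF, with overlap.

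In females of the HF diet Rxrb was at 630, 623 and 746 normalized reads in CTRL and 932, 941 and 828 in VDD. All 3 VDD values exceeded the 3 CTRL values, where 22.9% of the genes tested did not overlap in either direction, and the log2 fold was 0.45 (SE 0.13, limma adjusted p = 0.201). Over all 4 combinations of sex and diet, VDD was 0.21 higher than CTRL on the log2 scale (SE 0.08, limma adjusted p = 0.122) and HF 0.17 lower than LF (log2 difference -0.17, SE 0.08, limma adjusted p = 0.122). Neither passed the threshold, with or without VDD LF female 2303 (0.23, limma adjusted p = 0.127, and -0.19, limma adjusted p = 0.0996, without it). Without CTRL HF male 2127 both did, at 0.26 (limma adjusted p = 0.0300) and -0.22 (limma adjusted p = 0.0228).

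Rxrg (chr1:167598384-167639623, plus strand), the RXR of muscle and other restricted sites, had 248, 268 and 178 normalized reads in CTRL LF males and 284, 335 and 363 in VDD LF males. The VDD values were all above the CTRL values, where 13.4% of the genes tested did not overlap in either direction, and the log2 fold was 0.52 (SE 0.22, limma adjusted p = 0.719). In HF males the values were 298, 193 and 174 in CTRL and 361, 350 and 214 in VDD, and in HF females 163, 211 and 199 in CTRL and 211, 280 and 457 in VDD. In HF males the groups overlapped. In HF females the lowest VDD value (211.449) and the highest CTRL value (211.441) were all but equal, and on the scale of the deposited table the groups overlapped. In LF females the values were 191, 164 and 241 in CTRL and 270, 200.04 and 140 in VDD, with no separation.

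Over the 4 strata the log2 difference of Rxrg between VDD and CTRL was 0.41 (SE 0.15, limma adjusted p = 0.101), not called. It was 0.36 (limma adjusted p = 0.176) without VDD LF female 2303, 0.47 (limma adjusted p = 0.0454) without VDD LF female 2312, and 0.31 (limma adjusted p = 0.238) with the mean log2 level of the muscle markers in the model. With that of the macrophage markers it was 0.25 (SE 0.13, limma adjusted p = 0.327). The 4 libraries with the highest muscle sums were VDD libraries, namely VDD LF male 2310 (922340 normalized reads), VDD HF male 2307 (315733), VDD HF male 2298 (207111) and VDD LF female 2303 (136733). The part of muscle RNA or of macrophages in the level of Rxrg was not tested beyond those models.

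Pdia3 (chr2:121413775-121438687, plus strand), a disulfide isomerase of the endoplasmic reticulum that folds glycoproteins, was the 1 gene of the 7 that was called for the offspring diet, against 29.1% of all genes tested. At an unadjusted p under 0.05 there were 2 of 7, Pdia3 and Rxrb, against 39.7% of all genes. In males the values were 3968, 4967 and 4015 normalized reads in CTRL LF and 4971, 4783 and 5212 in CTRL HF, then 3224, 3248 and 3935 in VDD LF and 4036, 4828 and 5890 in VDD HF. In females they were 4665, 3518 and 3418 in CTRL LF and 6025, 4953 and 6495 in CTRL HF, then 4123, 3824 and 3534 in VDD LF and 4411, 3353 and 5161 in VDD HF. Of the 12 HF values 11 exceeded the LF median of 3879, and 6 exceeded the highest LF value. HF and LF did not overlap in VDD males and in CTRL females, and overlapped in the other 2 strata.

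The mean log2 difference of Pdia3 between HF and LF was 0.36 (SE 0.09, limma adjusted p = 0.00445), and 0.38 (limma adjusted p = 0.00553) without VDD LF female 2303. Macrophage markers moved with the diet too, their sum being 4643 to 35784 normalized reads in HF (median 14648) and 4148 to 21723 in LF (median 6484). With their mean log2 level in the model the difference of Pdia3 was 0.22 (SE 0.13, limma adjusted p = 0.316) and was not called, and their part in it was not tested further. With the adrenal markers it was 0.30 (SE 0.08, limma adjusted p = 0.0141) and stayed called. The 2 strata with separate groups were those with the larger table values, 0.57 (SE 0.17, limma adjusted p = 0.0787) in CTRL females and 0.49 (SE 0.18, limma adjusted p = 0.154) in VDD males, neither of which was called alone. Pdia3 overlaps Catsper2 on the opposite strand, which had at most 158 normalized reads in any library.

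A short stretch just upstream of the RefSeq start of Pdia3 is shown because the gene belongs to the endoplasmic reticulum chaperones, whose promoters often carry the stress element CCAAT, 9 spacer bases and CCACG. The 30 bases of GRCm38.p6 chr2:121413867-121413896 (plus strand) hold this element without its last base, in capitals.
Pdia3: acgcagCCAATCGGCGGCTGCCACactgcg
The match (CCAAT, 9 bases, CCAC) begins 29 bases upstream of the RefSeq start, and 0.32% of promoter windows hold one on either strand. The GENCODE M21 gene begins farther upstream than the RefSeq start, so these bases lie within that gene. It is a match of letters, and no measurement of the unfolded protein response was made here.

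**Figure D3:**
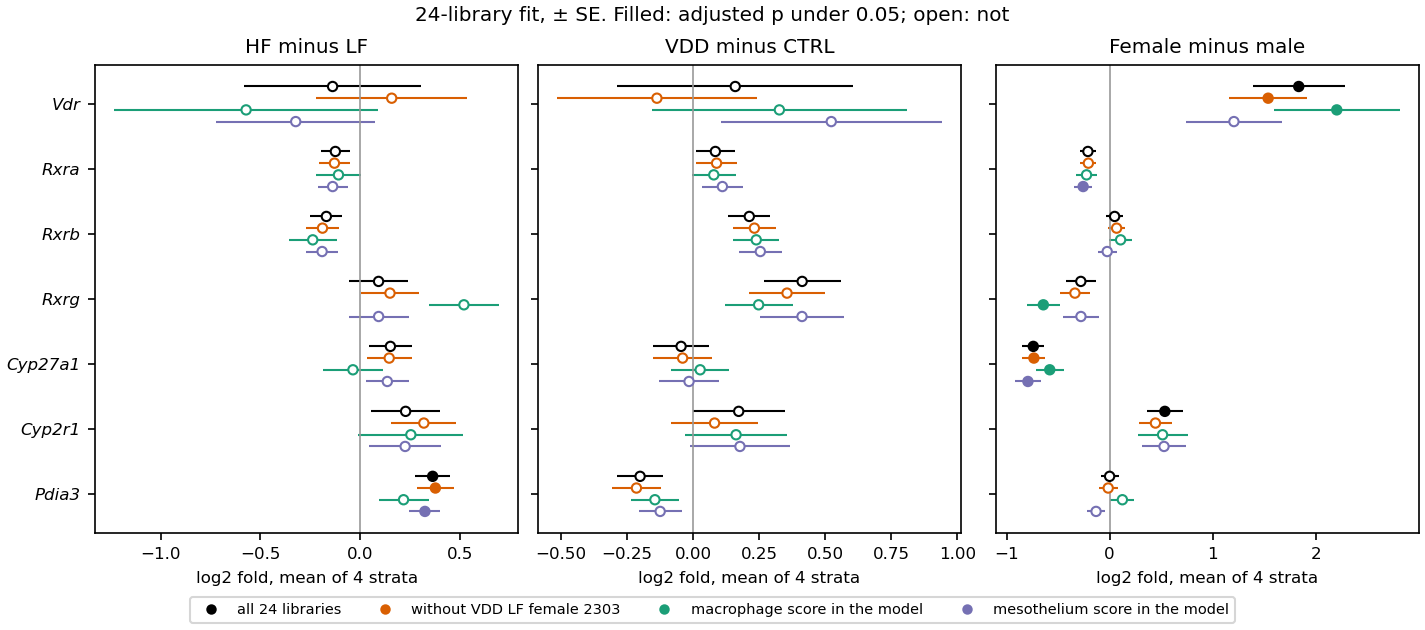
Mean log2 difference ± SE of the 7 genes tested (y axis) between HF and LF, VDD and CTRL, and females and males (x axes, which differ in range), from the limma fit of the 24 libraries, with filled points for an adjusted p under 0.05. Colours give the fit of all libraries, that without VDD LF female 2303, and those with the macrophage or the mesothelium score. For the sex difference Cyp27a1 is filled in the 4 fits and Vdr in 3 of 4, and for HF minus LF Pdia3 is filled in 3 of 4.

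The maternal diet was compared within each sex and offspring diet. With the thresholds of the study (fold change above 1.5 or below 0.66 at an adjusted p under 0.01), 0 of 7 genes were called by limma in CTRL LF vs. VDD LF males, CTRL HF vs. VDD HF males, CTRL LF vs. VDD LF females and CTRL HF vs. VDD HF females, against 0% of all genes tested in each. The study applied these thresholds to DESeq2 results and listed differentially expressed genes in each of these comparisons. Since limma called no gene at all in them, 0 of 7 says nothing particular about these genes. At an unadjusted p under 0.05 in limma there were 1, 0, 0 and 2 of 7 genes respectively, against 6.79%, 5.31%, 12% and 16.7% of the genes tested. With limma-voom 0 of 7 were called as well. Its share over all genes is not given here, so that count says nothing particular about these genes. The groups did not overlap for 3, 0, 0 and 2 of the 7 genes, against 13.4%, 10.3%, 18.2% and 22.9% of the genes tested. These counts use the scale of each deposited table, which differs slightly from the common scale of the values printed above. The 3 in LF males were Rxrb and Rxrg (higher in VDD) and Pdia3 (lower in VDD), of which Rxrb overlapped on the common scale (lowest VDD value 839, highest CTRL value 842), and the 2 in HF females were Rxrb (higher) and Vdr (lower).

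The receptor itself had its largest table value in LF females. Vdr in CTRL LF vs. VDD LF females gave a log2 fold of 1.85 (SE 0.95, limma adjusted p = 0.450), which fell to 0.66 (SE 0.44, limma adjusted p = 0.615) without VDD LF female 2303, so that 1 library made up most of it. In HF females, where that library does not enter, the 3 VDD values (34.8, 36.4 and 33.0) were all below the 3 CTRL values (57.6, 58.6 and 65.7), with a log2 fold of -0.77 (SE 0.24, limma adjusted p = 0.211). In males the log2 folds were -0.43 (SE 0.98) in LF and 0.01 (SE 0.66) in HF, with wide errors. In the fit of all 24 libraries 0 of 7 genes were called for VDD minus CTRL, against 4.57% of all genes tested. The 3 at an unadjusted p under 0.05 were Rxrg, Rxrb and Pdia3 (log2 difference -0.20, SE 0.09, limma adjusted p = 0.181, or -0.21 and 0.201 without VDD LF female 2303), against 22.9% of all genes. With limma-voom 0 of 7 were called, and its share over all genes is not given here.

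The offspring diet was compared within each sex and maternal diet. In CTRL LF vs. CTRL HF males, VDD LF vs. VDD HF males, CTRL LF vs. CTRL HF females and VDD LF vs. VDD HF females, 0 of 7 genes were called by limma, against 0.0578%, 0.0752%, 0% and 0% of all genes tested. With limma-voom 0 of 7 were called too, and its share over all genes is not given here. The thresholds were again those of the study, which applied them to DESeq2 results and listed differentially expressed genes in each of these comparisons. At an unadjusted p under 0.05 there were 0, 2, 2 and 0 of 7, against 18.8%, 25.9%, 28.8% and 5.05% of all genes. The groups did not overlap for 0, 3, 2 and 1 of the 7, against 24.7%, 33.4%, 35.2% and 11.6%. The 3 in VDD males were Rxrb (lower in HF), Pdia3 and Cyp2r1 (higher), with log2 fold 0.72 for Cyp2r1 (SE 0.36, limma adjusted p = 0.262), the 2 in CTRL females were Pdia3 and Vdr (higher), and the 1 in VDD females was Vdr (lower).

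Vdr in CTRL females was 17.7, 45.9 and 32.3 normalized reads in LF and 57.6, 58.6 and 65.7 in HF, a log2 fold of 0.98 (SE 0.35, limma adjusted p = 0.120). In VDD females it was lower in HF, with a log2 fold of -1.63 (SE 0.93, limma adjusted p = 0.837) that was -0.44 (SE 0.36, limma adjusted p = 0.964) without VDD LF female 2303. The difference between these effects was tested as the interaction of maternal and offspring diet in females, and for Vdr it was -2.63 (SE 1.26, limma adjusted p = 0.787), or -1.45 (SE 1.10, limma adjusted p = 0.868) without that library. The interaction was not called for any of the 7 genes in males or females (0 of 7 each by limma, against 0% of all genes in both). At an unadjusted p under 0.05 there were 0 of 7 in each sex, against 4.11% of all genes in males and 6.36% in females. Neither the HF effect nor the VDD effect was called as differing between the sexes for any of the 7 (0 of 7 each by limma, against 0.0434% and 0% of all genes, and 0 of 7 each at an unadjusted p under 0.05, against 8.92% and 6.62%). With limma-voom 0 of 7 were called for each of these interactions and effects, and its share over all genes is not given here.

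**Figure D4:**
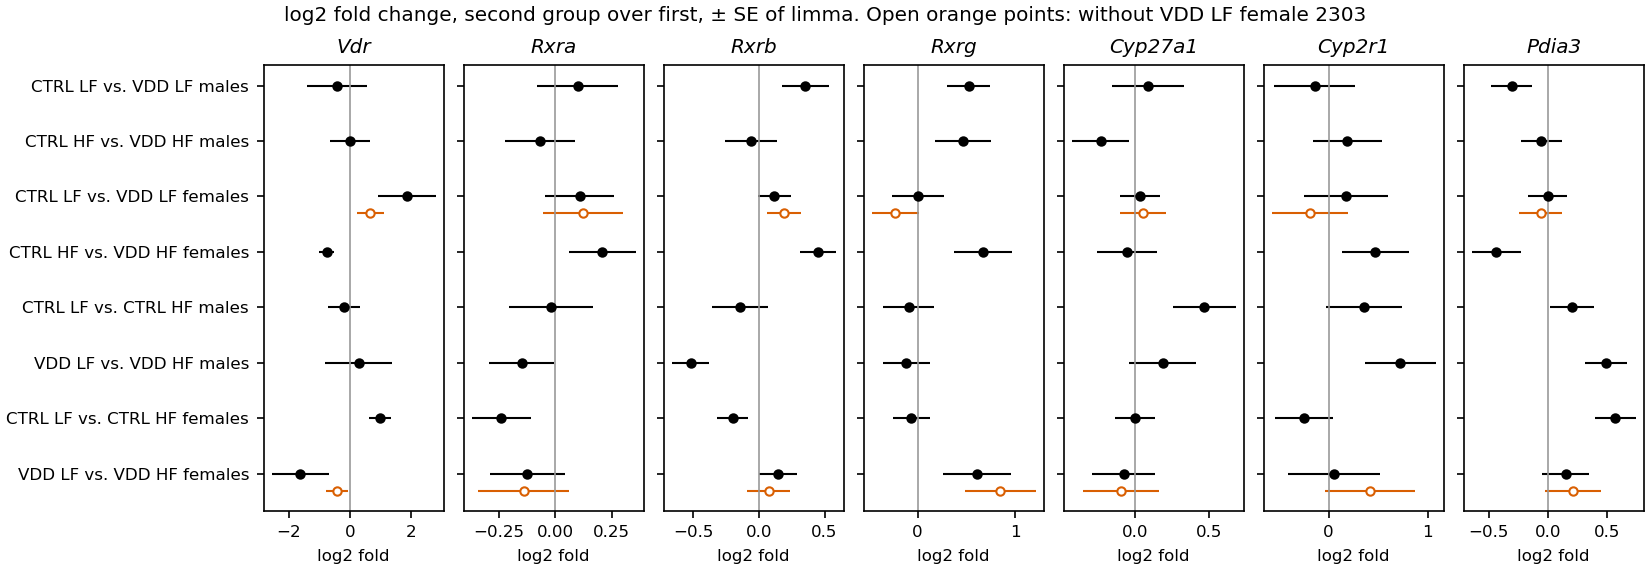
log2 fold change of the second named group over the first (x axes, which differ in range between genes) with the SE of limma for the 7 genes tested, in the 8 deposited comparisons (y axis). Black points use the 6 libraries of each table and open orange points leave out VDD LF female 2303. The values of Vdr in the tables with VDD LF females move from 1.85 to 0.66 and from -1.63 to -0.44 without it.

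Other genes of the pathway were taken from a list of 52, by role, of which 41 had enough reads for the 24-library fit. For the offspring diet, 6 were called higher and 13 lower in HF, against 15% and 14.2% of all genes tested, with a median log2 difference of 0.00 for the list and 0.01 for all genes. The 4 with the smallest p were Pparg, the adipocyte receptor that pairs with RXR (log2 difference -0.58, SE 0.09, limma adjusted p = 1.4e-04), Rara, a retinoic acid receptor (0.63, SE 0.11, limma adjusted p = 3.8e-04), Insig2, a reported VDR target that restrains sterol synthesis (-0.49, SE 0.09, limma adjusted p = 6.3e-04), and Dhcr7, the reductase that competes for the vitamin D precursor (0.77, SE 0.16, limma adjusted p = 0.00171). Without VDD LF female 2303, 6 of 40 were called higher and 12 lower, and these 4 genes were called with log2 differences of -0.58, 0.62, -0.46 and 0.79. Of the 13 other partners of RXR tested, 2 were called higher and 5 lower, while Rxra, Rxrb and Rxrg were not called. Of the 8 reported VDR targets tested, 0 were called higher and 3 lower.

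For the maternal diet 1 of the 41 was called higher and 3 lower in VDD, against 2.53% and 2.04% of all genes tested, with a median log2 difference of -0.01 for the list and -0.01 for all genes. They were Lrp5, a Wnt co-receptor and reported VDR target (log2 difference -0.35, SE 0.07, limma adjusted p = 0.0109), Fgfr1, a receptor of FGF23 (-0.27, SE 0.07, limma adjusted p = 0.0419), Ppara, a partner of RXR (1.03, SE 0.29, limma adjusted p = 0.0469), and Dab2, an adaptor of the uptake receptor megalin (-0.57, SE 0.16, limma adjusted p = 0.0499). Without VDD LF female 2303, 1 of 40 was called, Lrp5 (-0.34, SE 0.07, limma adjusted p = 0.0214). The other 3 were about as large there and just outside the threshold, Ppara at 1.11 (limma adjusted p = 0.0513), Dab2 at -0.60 (limma adjusted p = 0.0616) and Fgfr1 at -0.25 (limma adjusted p = 0.0769). Lrp5 had 935 to 1385 normalized reads in the 12 CTRL libraries (median 1116) and 702 to 1067 in the 12 VDD libraries (median 856), with overlap. The 5 brown adipocyte markers, from cells known to be rich in Ppara, summed to 2700, 20307 and 37189 normalized reads in the VDD HF females and to at most 9792 elsewhere, and their part in the difference of Ppara was not tested.

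Between the sexes 5 of the 41 were called higher and 5 lower in females, against 10.8% and 9.03% of all genes tested, with a median log2 difference of -0.10 for the list and 0.01 for all genes. Pth1r, the receptor of parathyroid hormone, was higher in females (1.26, SE 0.18, limma adjusted p = 6.8e-05), at 471 to 1773 normalized reads (median 657) against 157 to 581 in males (median 278). It was 1.16 higher (SE 0.16, limma adjusted p = 8.3e-05) without VDD LF female 2303, which held the highest value. Dhcr7 was higher in females (0.80, SE 0.16, limma adjusted p = 0.00172), and the corepressor Ncor1 (-0.37, SE 0.08, limma adjusted p = 0.00221) and Fgfr1 (-0.31, SE 0.07, limma adjusted p = 0.00561) were lower. Without VDD LF female 2303, 4 of 40 were called higher and 7 lower, and Dhcr7, Ncor1 and Fgfr1 were called at 0.78, -0.37 and -0.29. With the adrenal markers in the model Pth1r stayed called (1.47, SE 0.26, limma adjusted p = 0.00485). Dhcr7 (0.60, limma adjusted p = 0.217), Ncor1 (-0.25, limma adjusted p = 0.291) and Fgfr1 (-0.21, limma adjusted p = 0.367) were not, while the HF difference of Dhcr7 was (0.70, limma adjusted p = 0.00604). Of the 9 coregulators of VDR and RXR tested, 0 were called higher and 2 lower.

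The genes whose log2 level followed each member most closely over the libraries are given as a description. All points share the 8 groups and the cell make-up of the pads. For Cyp27a1 they were Prss55 (Pearson r = 0.925 over 24 libraries), Adap2 (r = 0.913) and the chemokine Ccl11 (r = 0.906). For Pdia3 they were Serpinb9 (r = 0.917), Eid1 (r = 0.900) and Rcn1 (r = 0.894), and for Rxrb Pias4 (r = 0.915), Stk11 (r = 0.869) and Lemd2 (r = 0.864). Rxrg was nearest to Coq2 (r = 0.818), Egln1 (r = 0.812) and Rnls (r = 0.797), Rxra to Ubap1 (r = 0.801), Dnajb12 (r = 0.799) and Sqstm1 (r = 0.788), and Cyp2r1 to Gpd1l (r = 0.740), Cdca7l (r = 0.737) and E030042O20Rik (r = 0.724). Over the 23 libraries without VDD LF female 2303 only Rxrg kept all of its genes. Polr2c (r = 0.899) and Atp5g2 (r = 0.890) replaced Stk11 and Lemd2 for Rxrb. Stom (r = 0.749) replaced Gpd1l for Cyp2r1, and Ezh1 (r = 0.915) replaced Ccl11 for Cyp27a1. For Pdia3 D130040H23Rik (r = 0.902) replaced Rcn1, and for Rxra Pink1 (r = 0.791) replaced Sqstm1. The genes nearest to Vdr all changed. They included Scnn1a (r = 0.842) and Cutal (r = 0.837) over 24 libraries, and Klc3 (r = 0.882) and Naaladl2 (r = 0.877) over the 23 without VDD LF female 2303.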

How the data were processed

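Reads trimmed by the authors (Sickle) were aligned with STAR 2.7.0d to mm10 (per the submitters' processing notes), only unique positions being kept. The authors added transcripts assembled with Cufflinks 2.2.1 and counted with featureCounts 1.6.1. They deposited 8 tables of 56899 entries, each with 6 libraries (2 groups), as log2 values of size-factor normalized reads plus 1. Their own log2 fold changes and p-values in the same tables were not used, and 0 columns of per-sample values were left out. The authors' log2 values were turned back into whole reads (100% within 0.02), and 4 entries with repeated names were dropped. Reads on genes were 13346779 to 18484346 per library, and intervals from counts of 0 cover counting error only.

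The 9 genes, the pathway list and the marker lists were chosen with earlier results of these data known. Values of each table (log2 with a pseudocount of 1, genes with at least 10 normalized reads in 3 libraries) were compared with limma 3.58.1 (lmFit, eBayes with trend, R 4.3.3) and Benjamini-Hochberg adjustment. For differences between sexes and interactions, reads of the 24 libraries were rescaled together by the median of ratios and fitted in 1 model of 8 groups, with calls at an adjusted p under 0.05. Named were the 9 genes, at most 4 called pathway genes per effect and the 3 genes closest to each member. A kidney marker and 2 of the genes closest to Vdr are not reported here. The fits were also run on simulated reads. These held no differences in tissue make-up between libraries, so that run cannot speak for such differences. Alternatives were a pseudocount of 10, no filter, limma-voom, upper-quartile scaling, other thresholds, marker scores as covariates, 1 sex in 1 fit, and leaving out libraries. Python 3.11.15, numpy 2.4.6, pandas 2.3.3 and matplotlib 3.10.9 were used. Promoters are from RefSeq (GRCm38.p6), gene positions from GENCODE M21.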

Additional observations from a re-analysis of the deposited data

How the results depend on the processing

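In the 8 deposited comparisons the number of the 7 tested genes that were called was 0 under each alternative run, also when each library was left out in turn. The same held for both interactions of maternal and offspring diet and for both effects compared between sexes. For HF minus LF the count was 1 (Pdia3). It was 2 with upper-quartile scaling (Rxrb besides), 0 with the macrophage score as a covariate, 0 with the study's thresholds, and 1 to 2 when single libraries were left out (2 without CTRL HF male 2127). For VDD minus CTRL the count was 0, and 0 to 1 when single libraries were left out (Rxrb without CTRL HF male 2127, Rxrg without VDD LF female 2312). Between the sexes the count was 3, stayed between 2 and 4 in all alternatives but 1, and was 1 with the adrenal score as a covariate. Of 36 alternatives Cyp27a1 was called in 36, Vdr in 34 and Cyp2r1 in 17. The scores of mesothelium, brown adipocytes, kidney and adrenal were added as covariates after the data were seen. No single value given above changed its sign where it had an unadjusted p under 0.05. The cause of these changes was not tested. No paired analysis was possible because the library columns carry mouse numbers and not the replicate numbers of the sample titles. Depth limits Cyp24a1, Cyp27b1, Cyp2r1 and Vdr, the last with as few as 3 reads in a library.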

Other observations

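Genes of vitamin D handling by the kidney were high in VDD LF female 2303 besides Vdr and Cyp24a1, and 12 of the 52 pathway genes had their highest value there. S100g, a calcium-binding protein, had 3206 normalized reads against at most 65.7 in the other 23 libraries, Calb1, another one, 602 against at most 46.6, and Kl, the co-receptor of FGF23, 538 against at most 21.6. The uptake receptors Cubn and Lrp2 had 466 against at most 18.7 and 1430 against at most 563, and Gc, the plasma carrier of vitamin D, 289 against at most 7.23. The calcium channel gene Trpv5 had 37.7 normalized reads there and was at 0 in the other 23 libraries. The column name of that library does not hold the word renal, which 6 other columns hold.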
